A study of Mus musculus with 12 samples.

Results

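The genes described here make cholesterol and fatty acids or control their making through the SREBP pathway. They were taken by symbol from a list of 36 genes, and all 36 were found among the 35321 genes of the deposited gene table, each with reads in all 12 libraries. The cells were C17.2, an established mouse multipotent neural stem cell line of CD1 x C57BL/6 origin, so the libraries describe 1 line and no animals. All cells had first been grown with 10% fetal bovine serum in DMEM/F12. Groups at 1 and 2 h had been moved to the neural differentiation medium, Knockout DMEM with GlutaMAX and N2 supplement, and the groups at 0 h had not. RNA was isolated from a mitochondrial preparation and from nuclei at each time, which gave 6 groups of 2 libraries. No group at 1 or 2 h was kept in the growth medium, so time after the change and the change of medium itself cannot be told apart. The series asks about nuclear-encoded RNA at mitochondria early in neuronal differentiation, and the members here are all nuclear genes.

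Cholesterol is built from acetyl-CoA through mevalonate, isoprenoid diphosphates, squalene and lanosterol, and fatty acids are built from the same acetyl-CoA by carboxylation, chain synthesis, elongation and desaturation. The genes of both routes are switched on by SREBP transcription factors, which are made as membrane proteins of the endoplasmic reticulum. The escort protein SCAP carries them to the Golgi when membrane sterol is low, where the proteases encoded by Mbtps1 and Mbtps2 cut them and free the part that enters the nucleus. INSIG proteins hold the SCAP complex back when sterol is high, and Insig1 is itself an SREBP target. In the brain cholesterol is made locally, since lipoproteins of the blood do not pass the blood-brain barrier, and sterol synthesis serves membrane growth and myelin.

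SREBPs are known to act at short elements near gene starts, next to sites for NF-Y and Sp1. The promoter letters of 5 members are shown because 3 of them (Hmgcs1, Hsd17b7 and Lss) rose at 2 h in both preparations by the test described further on, while Insig1 and Insig2, which encode proteins of the same kind, moved in opposite directions there. Capitals mark matches, on either strand, to TCACNCCAC (an SRE form), CCAAT (the NF-Y box), GGGCGG (an Sp1 box) and CACGTG (an E-box). The sequences are RefSeq's on GRCm38.p6 and run 5′ to 3′ on the strand of the gene, ending before the annotated gene. That of Hmgcs1 lies at chr13:119690151-119690350 on the plus strand, that of Hsd17b7 at chr1:169969242-169969405 on the minus strand and that of Lss at chr10:76531405-76531587 on the plus strand. Insig1 was read at chr5:28071212-28071362 on the plus strand and Insig2 at chr1:121332590-121332789 on the minus strand, from the first of its 3 windows.
Hmgcs1: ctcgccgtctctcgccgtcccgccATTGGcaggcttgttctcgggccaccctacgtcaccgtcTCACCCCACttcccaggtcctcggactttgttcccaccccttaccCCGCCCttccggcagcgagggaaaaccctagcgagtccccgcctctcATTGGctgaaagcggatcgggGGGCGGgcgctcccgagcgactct
Hsd17b7: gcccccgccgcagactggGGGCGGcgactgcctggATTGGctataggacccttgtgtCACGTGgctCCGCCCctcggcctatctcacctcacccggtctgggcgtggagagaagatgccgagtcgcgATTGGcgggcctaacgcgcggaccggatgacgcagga
Lss: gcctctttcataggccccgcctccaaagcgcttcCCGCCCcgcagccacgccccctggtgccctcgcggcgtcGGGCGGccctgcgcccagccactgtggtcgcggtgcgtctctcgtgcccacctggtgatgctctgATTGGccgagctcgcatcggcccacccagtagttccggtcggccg
Insig1: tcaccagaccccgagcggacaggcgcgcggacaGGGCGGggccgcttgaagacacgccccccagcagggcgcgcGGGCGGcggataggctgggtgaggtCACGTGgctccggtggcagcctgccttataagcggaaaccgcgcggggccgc
Insig2: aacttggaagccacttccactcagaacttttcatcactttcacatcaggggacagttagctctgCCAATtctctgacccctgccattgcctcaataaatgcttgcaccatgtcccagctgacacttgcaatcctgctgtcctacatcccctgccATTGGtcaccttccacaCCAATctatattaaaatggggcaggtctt

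The promoter table held windows, from 250 bases before to 50 after the start, for 29 of the 36 members. Sqle, Scd1, Fdps, Fads1, Scd2, Fdft1 and Stard4 had none. The SRE form was found in 1 of the 29, Hmgcs1, where it ran from base -137 to base -129 of the start, against 1.44% of all 27025 genes of that table. A CCAAT box occurred in 22 of the 29 members (75.9%) and in 41.1% of all genes, and GGGCGG in 23 members (79.3%) and 38.2% of all genes. CACGTG occurred in 5 members (17.2%), namely Dhcr7, Hsd17b7, Insig1, Sc5d and Scap, against 8.09% of all genes. Hmgcs1, the HMG-CoA synthase gene, carried the SRE letters together with 4 CCAAT and 3 GGGCGG matches in its window. Insig2 carried 3 CCAAT matches and none of the other motifs in its first window. These are matches of letters, not sites of binding, and a window without a match says nothing of the factor.

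**Figure D1:**
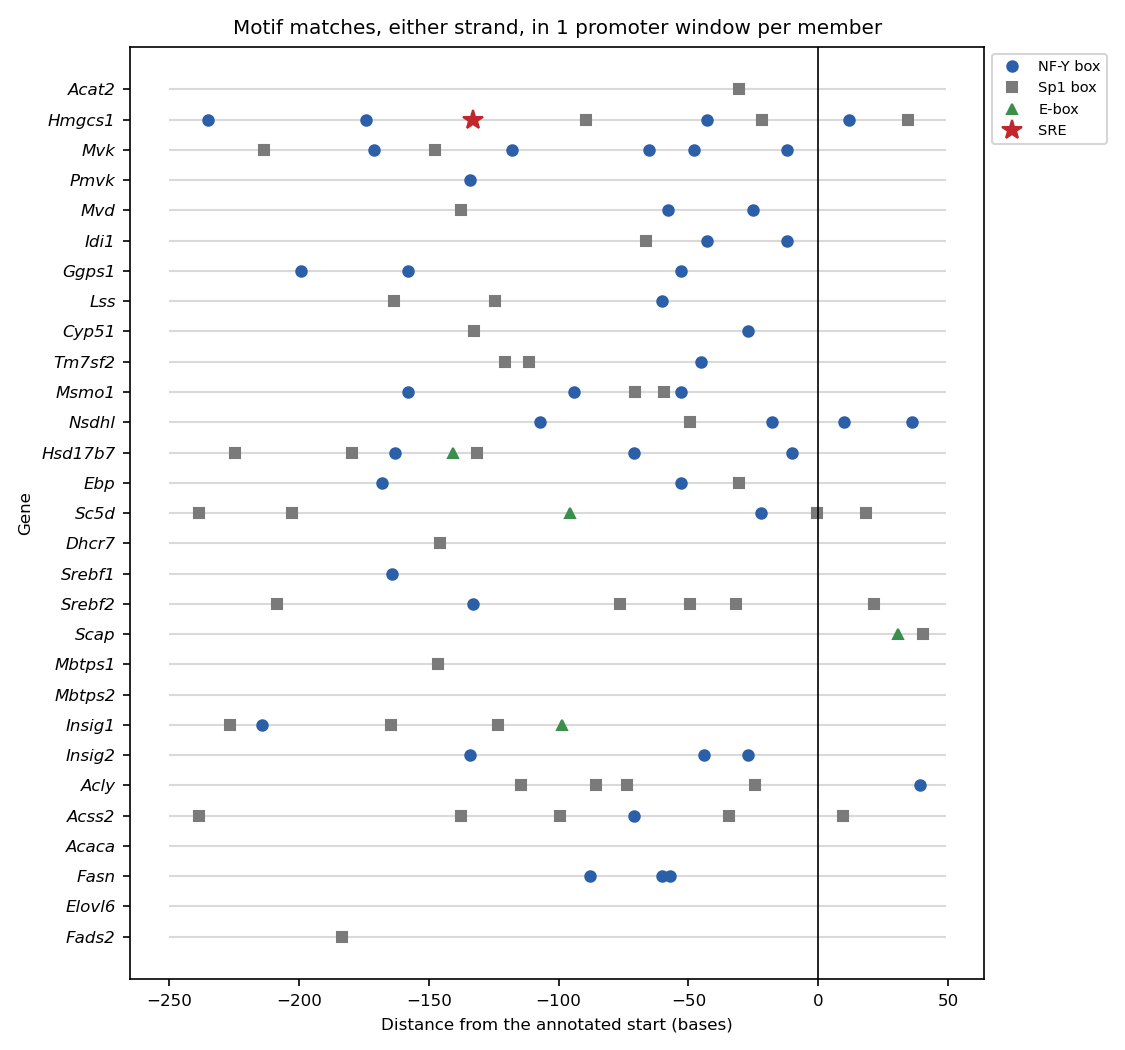
Positions of the motif matches in 1 window for each of the 29 members with a promoter sequence, by distance in bases from the annotated start (0), with 1 symbol for each motif. The SRE form appears once, in Hmgcs1, while CCAAT and GGGCGG matches spread over most members.

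The gene values were deposited as log2 RPM, a gene's reads against all reads of its library, at 30.3 to 42.3 M reads a library, of which 13.9 to 21.9% lay in the listed genes. Members had between 22 and 14499 reads in a library. On this scale most genes shifted down with time: the median log2 fold change over the 21078 genes tested was -0.28 in the mitochondrial preparation and -0.51 in nuclei at 2 h against 0 h. The share of reads inside genes fell beside it, from 20.0% to 15.5% and from 21.7% to 15.0% in the same groups. Tests were therefore made on quantile normalized values, which set each library to the same distribution, and such changes are relative to the other genes. RPM in the text are the quantile normalized values unless called deposited. In bulk RNA fewer cells and less RNA per cell cannot be told apart. Of the progenitor genes, Nes and Vim were at 97.2 to 161 and 324 to 533 deposited RPM, while Sox2, Sox9, Msi1, Fabp7 and Hes1 lay between 0.243 and 11.7. Of the neuronal genes, Tubb3 was at 4.38 to 9.80 and Map2 at 5.41 to 12.8 deposited RPM. Rbfox3, Syt1 and Snap25 had at most 1 read in a library. The 4 fibroblast genes summed to 1372 to 2907 deposited RPM, nearly all of it Col1a1 and Col1a2, with Thy1 and Dcn at 6 reads or fewer. The nuclear RNA Malat1 was higher in nuclei at each time (456 to 1042 deposited RPM) than in the mitochondrial preparation (265 to 549 deposited RPM). It was still abundant in the latter. In 4 libraries (mitochondria 0 h replicate 2 and 1 h replicate 1, nuclei 0 h replicate 1 and 1 h replicate 1) Rps27, Rpl17, Rpl23a and Gapdh together had 176 to 516 reads, against 8027 to 14344 in the other 8. Both libraries of a 2 h group were on the higher side.

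At 1 h no member was called higher in either preparation after quantile normalization, although the 1 h libraries of Insig1 lay above those of 0 h in both. In the mitochondrial preparation 7 genes of sterol enzymes, desaturases and the SREBP machinery fell at 1 h, 19.4% of the members against 3.74% of all genes. Only 2 of the 7, Sqle and Mbtps1, kept their calls without each library in turn. At 2 h Hmgcs1, Pmvk, Lss, Msmo1 and Hsd17b7, with Insig1 and Scd2, were higher than at 0 h in both preparations after quantile normalization, while Insig2 and Mbtps2 were lower. In nuclei these 2 were the only falls called, 5.56% of the members against 5.55% of all genes. The largest called rises over 0 h were 1.75-fold for Hsd17b7 in the mitochondrial preparation and 1.70-fold for the same gene in nuclei. Fatty acid synthase itself did not rise. A change was called at a Benjamini-Hochberg adjusted p under 0.05 in limma, over all 21078 genes of a comparison, from 1 fit with 2 libraries in each of the 6 groups. Values after ± are standard errors of that fit, and p measures only the spread between these libraries, which nothing in the labels ties to separate animals. Comparisons of 1 preparation share libraries with each other, so their calls are not independent.

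In the mitochondrial preparation at 1 h against 0 h, 0 members were called higher, against 2.24% of all genes, and 7 lower, against 3.74%. Of the 10895 tested genes with a mean at or above that of the lowest member, 3.82% were higher and 6.78% lower. The median member differed by -0.13 on the log2 scale (0.00 over all genes tested). The 7 were Sqle, Cyp51, Dhcr7, Srebf2, Mbtps1, Fads1 and Fads2, all with changes between -0.31 and -0.53. Without 1 library in turn the count of 7 became 6 (without 0 h replicate 1), 3 (without 0 h replicate 2) and 4 (without either 1 h library). Sqle and Mbtps1 kept their calls in all 4 of these fits. At an unadjusted p under 0.05, 1 member was higher and 12 were lower. In nuclei at 1 h against 0 h, 0 members were called higher and 0 lower (1.01% and 0.816% of all genes), with 5 and 2 at an unadjusted p under 0.05 in limma, and the median member was at 0.03.

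By 2 h against 0 h, the mitochondrial preparation had 9 members higher, against 4.66% of all genes, and 5 lower, against 6.78%. The risers were Hmgcs1, Pmvk, Lss, Msmo1, Hsd17b7, Sc5d, Insig1, Stard4 and Scd2, and those that fell were Insig2, Mbtps1, Mbtps2, Fasn and Fads2. The median member was at 0.09. Leaving out 0 h replicate 2 or 2 h replicate 2 gave 5 higher and 0 lower, leaving out 0 h replicate 1 gave 7 and 3, and leaving out 2 h replicate 1 gave 7 and 2. In nuclei 12 members were higher, against 4.65% of all genes, and 2 lower, against 5.55%. These were Hmgcs1, Pmvk, Fdft1, Lss, Cyp51, Msmo1, Hsd17b7, Insig1, Scap, Scd1, Scd2 and Fads1 upward and Insig2 and Mbtps2 downward, with a member median of 0.31. As deposited, 9 of the 12, all but Pmvk, Lss and Hsd17b7, lay below 0 h, as did Scd2 among the 9 of the mitochondrial preparation. The 12 became 7 without 0 h replicate 2 or 2 h replicate 1 and 8 without either of the others, and the 2 became 0 without 0 h replicate 1 or 2 h replicate 2 and 1 without the others. Members are well-read genes: of the 10895 tested genes with a mean at or above that of the lowest member, 7.61% were higher in the mitochondrial preparation and 7.64% in nuclei. Of the same genes 11.7% and 9.78% were lower, against 13.9% and 5.56% of the members, so the members' falls were near or below that share.

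Between 1 h and 2 h, which both followed the change of medium, 12 members rose in the mitochondrial preparation, against 1.61% of all genes, and 0 fell, against 2.12%. They were Hmgcs1, Fdft1, Sqle, Lss, Cyp51, Msmo1, Hsd17b7, Sc5d, Insig1, Stard4, Scd2 and Fads1, and the median member stood at 0.37. At an unadjusted p under 0.05, 3 were lower. Without 1 h replicate 1 there were 6, without 2 h replicate 2 there were 4, and without either of the others 9. In nuclei 6 rose, against 1.16% of all genes, and 0 fell, against 1.27% (0 also at an unadjusted p under 0.05). These were Hmgcs1, Sqle, Lss, Cyp51, Hsd17b7 and Scd2, with a member median of 0.20. The 6 became 3 without 1 h replicate 1, 1 without 2 h replicate 1 and 2 without either of the others. At the members' level of reads, 2.66% and 1.84% of the 10895 genes rose in these comparisons.

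The 4 libraries that stand apart are all of 0 or 1 h, so each comparison was also made without them. With the 8 other libraries alone limma called 0 members in any comparison, where groups at 0 and 1 h keep 1 library each, assumed to vary like the rest. It also called few genes in all: at 2 h against 0 h, 0.41% of 20259 genes were higher and 0.202% lower in the mitochondrial preparation, 0.336% and 0.128% in nuclei, and from 1 to 2 h none were called in either. At an unadjusted p under 0.05, 16 members passed at 2 h against 0 h in the mitochondrial preparation and 20 in nuclei. All 28 changes called there in the 12 libraries kept their direction. Those 28 were chosen by a fit that holds the same 8 libraries, so their direction was largely fixed in advance and is no separate support. For instance, Hmgcs1 differed by 0.61 and 0.43 (log2) in the mitochondrial preparation and nuclei and Hsd17b7 by 0.90 and 0.83. Mbtps2 in the mitochondrial preparation was the 1 of the 28 that moved by over 1.5 times, from -0.37 to -0.22, and Pmvk in nuclei moved from 0.68 to 0.49. With a term for the split in the fit of all 12, the members called were 10 higher and 3 lower in the mitochondrial preparation, against 5.27% and 5.98% of all genes, and 17 higher and 1 lower in nuclei, against 5.22% and 5.23%.

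**Figure D2:**
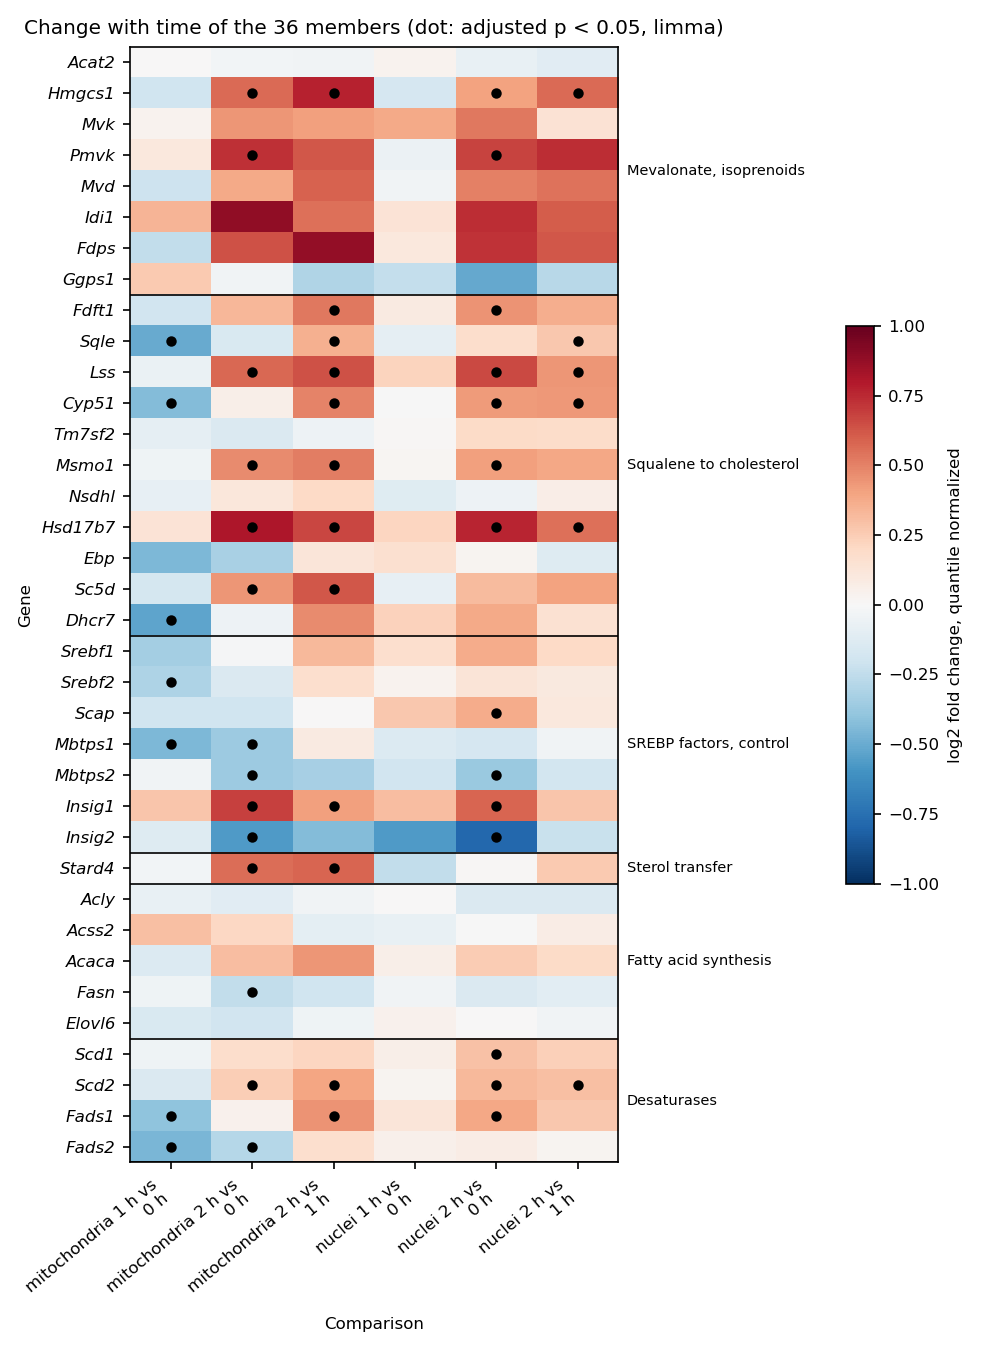
Log2 fold changes after quantile normalization of the 36 members (rows, by role) in the 6 comparisons of time (columns), from blue (lower) to red (higher), with a dot where the adjusted p was under 0.05 in limma. Red with dots gathers in the sterol enzymes at 2 h in both preparations, while the 7 dots at 1 h in the mitochondrial preparation are all blue.

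The mevalonate steps were led by Hmgcs1 (chr13:119690379-119708260, plus strand), which condenses acetyl-CoA units to HMG-CoA. In the mitochondrial preparation it was at 35.4 and 36.7 RPM (0 h), 33.4 and 29.4 RPM (1 h), then 53.4 and 53.3 RPM (2 h), and in nuclei at 35.7 and 34.5 RPM (0 h), 31.6 and 30.9 RPM (1 h), then 47.7 and 45 RPM (2 h). In both preparations the 2 h libraries lay above all 4 earlier ones, and the 1 h libraries lay below those of 0 h. At 2 h it had risen over 0 h by 0.57 ± 0.070 (adjusted p = 0.000477) on the log2 scale in the mitochondrial preparation, or 1.48-fold, and by 0.40 ± 0.070 (adjusted p = 0.00388) in nuclei, or 1.32-fold. Over 1 h it had risen by 0.77 ± 0.070 (adjusted p = 0.000257) and 0.57 ± 0.070 (adjusted p = 0.00167). All 4 calls held without each library of the comparison in turn. As deposited, however, the nuclear change at 2 h against 0 h was -0.14 (adjusted p = 0.17 in limma), so that rise depends on the scale. Coordinates of genes are those of GENCODE M21 on GRCm38. An annotated antisense gene, Gm48342, overlaps Hmgcs1, and since the sources used here do not say whether strand was kept, its reads cannot be told apart.

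Pmvk (chr3:89454541-89469013, plus strand), the phosphomevalonate kinase, had few reads, 50 to 128 in a library. It stood at 1.82 and 1.85 RPM (0 h), 1.89 and 2.06 RPM (1 h), then 2.82 and 3.28 RPM (2 h) in the mitochondrial preparation and at 1.68 and 2.18 RPM (0 h), 1.77 and 1.89 RPM (1 h), then 2.93 and 3.19 RPM (2 h) in nuclei. The 2 h libraries were again the highest of each preparation, while those of 0 and 1 h overlapped in nuclei. It rose at 2 h over 0 h by 0.73 ± 0.178 (adjusted p = 0.0211) in the mitochondrial preparation and by 0.68 ± 0.178 (adjusted p = 0.0319) in nuclei. The former call held only without 2 h replicate 1 and the latter only without 0 h replicate 2 (largest adjusted p 0.13 and 0.245).

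The other 6 enzymes of this stage, Acat2, Mvk, Mvd, Idi1, Fdps and Ggps1, passed the threshold in none of the 6 comparisons of time. Mevalonate kinase (Mvk) and the decarboxylase Mvd differed at 2 h against 0 h in nuclei by 0.52 ± 0.158 (adjusted p = 0.0586) and 0.50 ± 0.164 (adjusted p = 0.0777). Idi1, the isopentenyl diphosphate isomerase, and Fdps, the farnesyl diphosphate synthase, had larger differences with wide errors: 0.89 ± 0.647 (adjusted p = 0.464) and 0.64 ± 0.505 (adjusted p = 0.53) in the mitochondrial preparation. Their values followed the library split described above: Fdps had 22.2 and 12.5 RPM (0 h), 9.98 and 19.8 RPM (1 h), then 24.5 and 27.3 RPM (2 h) in the mitochondrial preparation. Within the 4 groups that hold a library of each side, the library with few reads of those 4 genes was lower by a mean of 0.89 (log2) for Fdps and 1.17 for Idi1. Acaca and Tm7sf2 were lower there by 0.36 and 0.35, with the same sign in all 4 groups. In all, 16 of the 36 members kept 1 sign, up or down, in the 4 groups, as did 16.6% of all genes. Of these 16, the 4 named here had a mean over 0.25 in size, and Hmgcs1, Sqle and Fdft1 were among those with a smaller mean. Whether the split took part in the differences of these members with time was not tested.

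The steps from squalene to cholesterol held more calls in the 6 comparisons of time than any other role, but they are also the largest role. The count therefore does not make them the most affected for each gene. In nuclei at 2 h against 0 h, 5 of these 11 enzymes rose, and so did 3 of the 4 desaturases. Of their 11 enzymes, 7 rose from 1 to 2 h in the mitochondrial preparation and 4 in nuclei, with a median of 0.49 and 0.36, and 0 fell in these comparisons. Hsd17b7 (chr1:169949535-169969241, minus strand), which reduces the keto group left on the sterol ring during demethylation, was at 9.45 and 10.8 RPM (0 h), 11.1 and 11.2 RPM (1 h), then 16.4 and 19.1 RPM (2 h) in the mitochondrial preparation and at 11 and 10.0 RPM (0 h), 12 and 12.4 RPM (1 h), then 18.1 and 17.6 RPM (2 h) in nuclei. The libraries rose in order of time in both preparations without overlap between times. It rose at 2 h over 0 h by 0.81 ± 0.097 (adjusted p = 0.00042) and 0.77 ± 0.097 (adjusted p = 0.000605) and over 1 h by 0.67 ± 0.097 (adjusted p = 0.0037) and 0.55 ± 0.097 (adjusted p = 0.0136). The last of these calls held only without 1 h replicate 2 (largest adjusted p 0.0932), and the other 3 held in every fit without 1 library.

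Lss (chr10:76531588-76557138, plus strand), the lanosterol synthase that closes the sterol rings, had 17.9 and 16.2 RPM (0 h), 16.3 and 16.2 RPM (1 h), then 25.9 and 24.7 RPM (2 h) in the mitochondrial preparation and 18.5 and 16.3 RPM (0 h), 20.7 and 19.9 RPM (1 h), then 27.1 and 27.8 RPM (2 h) in nuclei. It was highest at 2 h in both, and the earlier times overlapped only in the mitochondrial preparation. The rises over 0 h were 0.57 ± 0.080 (adjusted p = 0.00107) and 0.66 ± 0.080 (adjusted p = 0.000461), and those over 1 h were 0.64 ± 0.080 (adjusted p = 0.00153) and 0.44 ± 0.080 (adjusted p = 0.0156). The nuclear rise over 1 h lost its call without each of the 4 libraries in turn (largest adjusted p 0.111), and the other 3 kept theirs. The antisense gene 4930483K19Rik overlaps Lss.

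Sqle (chr15:59315077-59331192, plus strand), the squalene epoxidase and a rate-limiting step of the pathway, behaved differently. It was at 28.4 and 28.7 RPM (0 h), 20.4 and 19.8 RPM (1 h), then 25.2 and 26 RPM (2 h) in the mitochondrial preparation and at 33.1 and 32 RPM (0 h), 30.7 and 30.3 RPM (1 h), then 35.8 and 37.6 RPM (2 h) in nuclei. In the mitochondrial preparation the 1 h libraries were the lowest and the 0 h ones the highest, with no overlap, whereas in nuclei the 2 h libraries were the highest. Sqle fell at 1 h in the mitochondrial preparation by 0.51 ± 0.061 (adjusted p = 0.000567), with -0.09 ± 0.061 (adjusted p = 0.554) in nuclei. From 1 to 2 h it rose by 0.35 ± 0.061 (adjusted p = 0.00942) and 0.27 ± 0.061 (adjusted p = 0.0443). At 2 h against 0 h it did not pass in either preparation (-0.16 and 0.17). The rise in the mitochondrial preparation lost its call without 2 h replicate 2 (adjusted p = 0.0713), and that in nuclei without each library in turn (largest adjusted p 0.216).

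Cyp51 (chr5:4081145-4104746, minus strand), the lanosterol demethylase, also dipped at 1 h in the mitochondrial preparation. Its values were 31 and 28.9 RPM (0 h), 20.9 and 23.4 RPM (1 h), then 29.9 and 32.4 RPM (2 h) in the mitochondrial preparation and 29.2 and 28.4 RPM (0 h), 30.0 and 27.6 RPM (1 h), then 39.3 and 38.4 RPM (2 h) in nuclei. The 1 h libraries of the mitochondrial preparation were below all others, while in nuclei the times 0 and 1 h overlapped below 2 h. It fell at 1 h in the mitochondrial preparation by 0.44 ± 0.078 (adjusted p = 0.0061) and rose from 1 to 2 h by 0.49 ± 0.078 (adjusted p = 0.00575). In nuclei it rose at 2 h by 0.43 ± 0.078 (adjusted p = 0.00487) over 0 h and 0.43 ± 0.078 (adjusted p = 0.0148) over 1 h. The call at 2 h over 0 h in nuclei held without each library, whereas the fall was lost without 0 h or 1 h replicate 1, the rise after it without 1 h replicate 1 or 2 h replicate 2, and the nuclear rise over 1 h without every library but 1 h replicate 1 (largest adjusted p 0.0555, 0.0571 and 0.102). Akap9 overlaps Cyp51 on the other strand.

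Msmo1 (chr8:64718139-64733792, minus strand), which oxidises the methyl groups that are then removed, stood at 12.2 and 12.6 RPM (0 h), 12.2 and 12 RPM (1 h), then 17.6 and 16.8 RPM (2 h) in the mitochondrial preparation and at 15.9 and 14.5 RPM (0 h), 16.7 and 14.2 RPM (1 h), then 22.2 and 18.3 RPM (2 h) in nuclei. The 2 h libraries were the highest of each preparation, and the earlier times overlapped in nuclei but not in the mitochondrial preparation. It rose over 0 h by 0.47 ± 0.105 (adjusted p = 0.0135) and 0.41 ± 0.105 (adjusted p = 0.0285) and, in the mitochondrial preparation, over 1 h by 0.51 ± 0.105 (adjusted p = 0.0212). Both mitochondrial calls were lost without each library in turn (largest adjusted p 0.0839 and 0.113), and the nuclear call without any library but 2 h replicate 2 (largest 0.219).

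Sc5d (chr9:42251595-42264256, minus strand), the sterol desaturase, was at 16.5 and 15.3 RPM (0 h), 14 and 14.1 RPM (1 h), then 21 and 22.3 RPM (2 h) in the mitochondrial preparation and at 19.8 and 17.3 RPM (0 h), 19.2 and 15.8 RPM (1 h), then 22.5 and 23.5 RPM (2 h) in nuclei. Its 2 h libraries were the highest in both. It rose in the mitochondrial preparation by 0.44 ± 0.099 (adjusted p = 0.0138) over 0 h and by 0.62 ± 0.099 (adjusted p = 0.00606) over 1 h, and differed by 0.32 ± 0.099 (adjusted p = 0.0659) and 0.40 ± 0.099 (adjusted p = 0.0578) in nuclei, which did not pass. The former calls were lost without 2 h replicate 2, and that over 0 h also without 0 h replicate 2 (largest adjusted p 0.101 and 0.0547).

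Fdft1 (chr14:63145150-63179578, minus strand), the squalene synthase, had 10.1 and 9.58 RPM (0 h), 7.9 and 9.42 RPM (1 h), then 12.1 and 12.8 RPM (2 h) in the mitochondrial preparation and 8.31 and 8.35 RPM (0 h), 8.12 and 9.64 RPM (1 h), then 11.1 and 11.7 RPM (2 h) in nuclei. Here too the 2 h libraries lay above the rest. The rise was 0.52 ± 0.109 (adjusted p = 0.0228) over 1 h in the mitochondrial preparation and 0.45 ± 0.109 (adjusted p = 0.0216) over 0 h in nuclei. The first call held only without 1 h replicate 2 and the second in none of the 4 fits without 1 library (largest adjusted p 0.155 and 0.126). Ctsb, an abundant lysosomal protease gene, overlaps Fdft1 on the other strand.

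Of the other 4 enzymes of this stage, Dhcr7, the last reductase of one branch, fell at 1 h in the mitochondrial preparation by 0.53 ± 0.128 (adjusted p = 0.0309), a call kept only without 1 h replicate 1 (largest adjusted p 0.197). Tm7sf2, Nsdhl and Ebp passed in no comparison of time. Their log2 fold changes in nuclei at 2 h against 0 h were 0.19, -0.05 and 0.03, so they lay below the 5 enzymes of the stage that rose there (0.41 to 0.77).

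**Figure D3:**
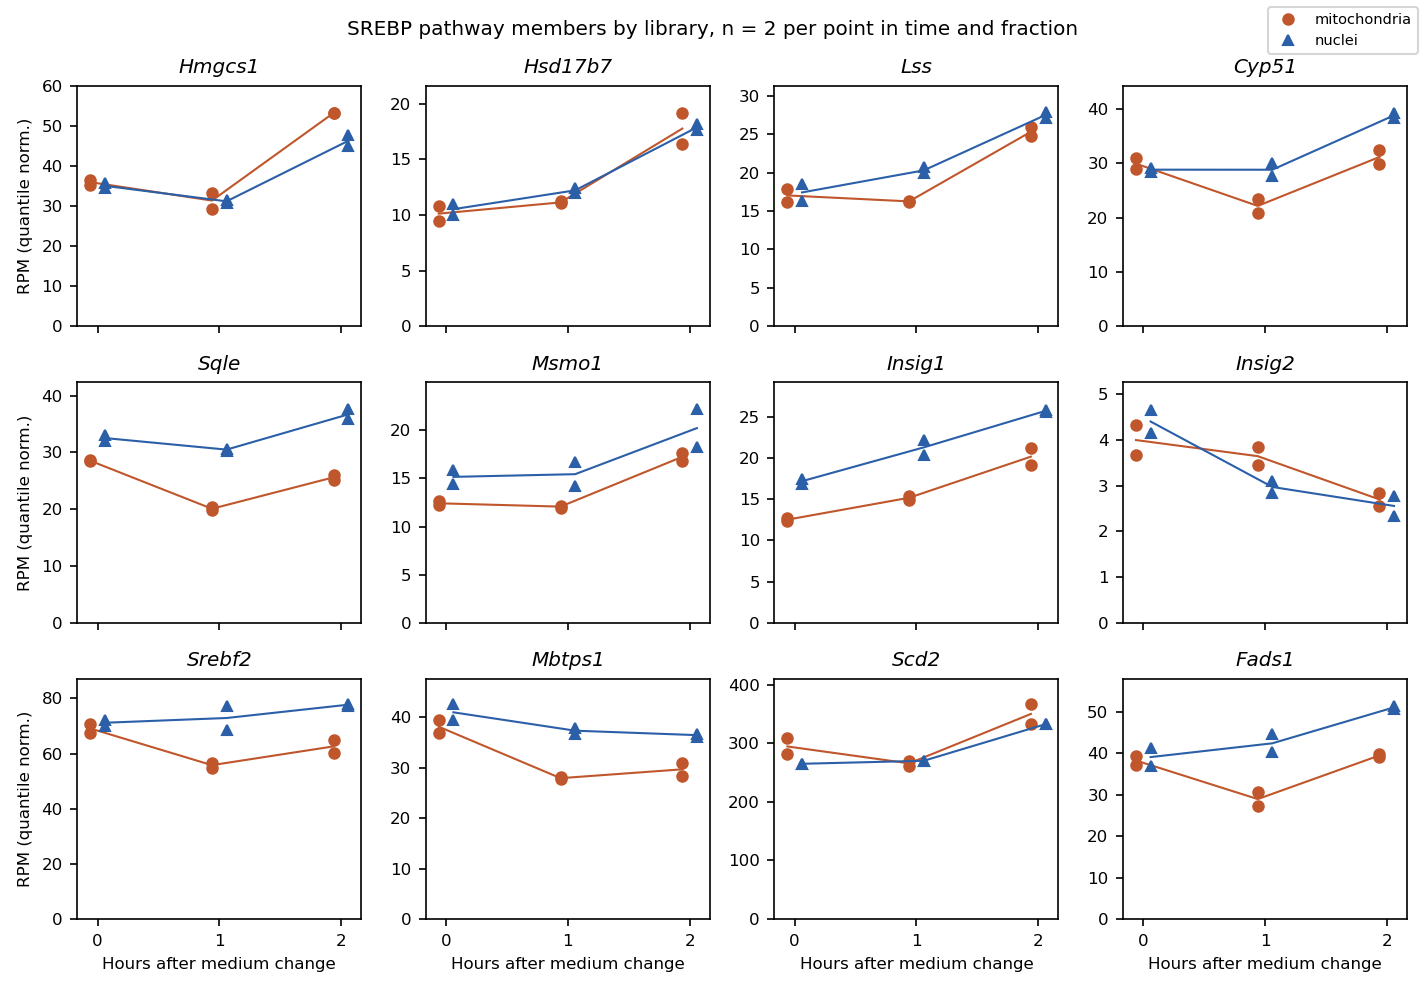
Quantile normalized RPM (vertical axes, from 0) of 12 members in every library against hours after the medium change, for the mitochondrial preparation (circles) and nuclei (triangles), with lines through the means of the 2 libraries. Hmgcs1, Hsd17b7 and Lss rise at 2 h in both preparations, Sqle, Cyp51, Srebf2, Mbtps1 and Fads1 are lowest at 1 h in the mitochondrial preparation, and Insig1 and Insig2 run in opposite directions.

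The SREBP genes themselves passed in few comparisons. Srebf2 (chr15:82147181-82205379, plus strand), whose protein mainly drives sterol synthesis genes, was at 67.4 and 70.9 RPM (0 h), 56.7 and 54.9 RPM (1 h), then 64.9 and 60.4 RPM (2 h) in the mitochondrial preparation and at 72.2 and 70.2 RPM (0 h), 77.3 and 68.6 RPM (1 h), then 77.4 and 78.1 RPM (2 h) in nuclei. In the mitochondrial preparation the 3 times did not overlap, with 1 h lowest, and in nuclei the 2 h libraries were the highest by a narrow margin. It fell at 1 h in the mitochondrial preparation by 0.31 ± 0.067 (adjusted p = 0.0175), a call kept only without 0 h replicate 1 (largest adjusted p 0.116), and passed in no other comparison of time. The microRNA gene Mir33 lies within Srebf2.

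Srebf1 (chr11:60199089-60222581, minus strand), whose protein mainly drives fatty acid genes, was at 26.9 and 34.1 RPM (0 h), 22.6 and 25.5 RPM (1 h), then 29.5 and 30.5 RPM (2 h) in the mitochondrial preparation and at 31.6 and 28.8 RPM (0 h), 37.1 and 31.1 RPM (1 h), then 37.8 and 40.4 RPM (2 h) in nuclei. The libraries of 1 h were lowest in the mitochondrial preparation, and those of 2 h were highest in nuclei. It passed in no comparison of time, with -0.34 ± 0.116 (adjusted p = 0.12) at 1 h in the mitochondrial preparation and 0.37 ± 0.116 (adjusted p = 0.0658) at 2 h in nuclei. Rai1 overlaps it on the other strand.

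Scap (chr9:110333288-110384950, plus strand), the sterol-sensing escort, stood at 18.3 and 19 RPM (0 h), 15.7 and 16.7 RPM (1 h), then 16.8 and 15.7 RPM (2 h) in the mitochondrial preparation and at 15.9 and 16 RPM (0 h), 19.9 and 18.4 RPM (1 h), then 20.2 and 21 RPM (2 h) in nuclei. The 0 h libraries were the highest in the former and the lowest in the latter. It rose in nuclei at 2 h over 0 h by 0.37 ± 0.074 (adjusted p = 0.00842), kept only without 2 h replicate 1 (largest adjusted p 0.0692), while the mitochondrial preparation gave -0.20 ± 0.074 (adjusted p = 0.114). The difference between these effects was -0.57 ± 0.105 (adjusted p = 0.132) and did not pass. The antisense gene 5830462I19Rik overlaps Scap.

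Mbtps1 (chr8:119508156-119558735, minus strand), the first of the proteases that cut SREBPs, was at 36.8 and 39.4 RPM (0 h), 27.7 and 28.1 RPM (1 h), then 30.9 and 28.4 RPM (2 h) in the mitochondrial preparation and at 42.5 and 39.3 RPM (0 h), 36.7 and 37.9 RPM (1 h), then 36.1 and 36.7 RPM (2 h) in nuclei. In the mitochondrial preparation both later times lay below 0 h. It fell there by 0.45 ± 0.069 at 1 h (adjusted p = 0.0025), kept without each library, and by 0.36 ± 0.069 at 2 h (adjusted p = 0.00609), lost without replicate 2 of either time (largest adjusted p 0.0596). Mbtps2, the protease of the next cut, fell at 2 h by 0.37 in both preparations (adjusted p = 0.0369 and 0.0377). Its call held only without 0 h replicate 1 in the mitochondrial preparation and in none of the 4 such fits in nuclei (largest adjusted p 0.272 and 0.221).

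The INSIG genes moved in opposite directions after quantile normalization. Insig1 (chr5:28071363-28078662, plus strand) was at 12.3 and 12.7 RPM (0 h), 15.4 and 14.9 RPM (1 h), then 19.1 and 21.1 RPM (2 h) in the mitochondrial preparation and at 16.9 and 17.5 RPM (0 h), 20.4 and 22.1 RPM (1 h), then 25.6 and 25.8 RPM (2 h) in nuclei. Its libraries rose in order of time in both, with no overlap, and nuclei were higher at each time. The rise over 0 h was 0.69 ± 0.075 (adjusted p = 0.000231), or 1.61-fold, and 0.58 ± 0.075 (adjusted p = 0.000674), both kept without each library. As deposited, the nuclear change was -0.0069 (adjusted p = 0.962 in limma), so the rise in nuclei depends on the scale. From 1 to 2 h it rose in the mitochondrial preparation by 0.41 ± 0.075 (adjusted p = 0.0128), a call kept only without 2 h replicate 1 (largest adjusted p 0.0997), and nuclei gave 0.27 ± 0.075 (adjusted p = 0.086).

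Insig2 (chr1:121304353-121332589, minus strand), which is known from liver to have transcripts under separate promoters, had 80 to 238 reads a library. Its values were 4.33 and 3.66 RPM (0 h), 3.85 and 3.44 RPM (1 h), then 2.85 and 2.55 RPM (2 h) in the mitochondrial preparation and 4.67 and 4.14 RPM (0 h), 2.85 and 3.09 RPM (1 h), then 2.78 and 2.33 RPM (2 h) in nuclei. The 2 h libraries were the lowest of each preparation, and in nuclei all 3 times were apart. It fell at 2 h against 0 h by 0.56 ± 0.156 (adjusted p = 0.0369) and by 0.79 ± 0.156 (adjusted p = 0.00765). The first call was lost without each library in turn and the second without 0 h replicate 1 or 2 h replicate 2 (largest adjusted p 0.205 and 0.0876). The antisense gene Gm37174 overlaps Insig2.

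Stard4 (chr18:33199355-33213862, minus strand), a carrier of sterol between membranes and a known SREBP target, was at 8.93 and 8.43 RPM (0 h), 8.84 and 8.21 RPM (1 h), then 11.8 and 13.9 RPM (2 h) in the mitochondrial preparation and at 9.53 and 9.73 RPM (0 h), 9.05 and 7.26 RPM (1 h), then 10.5 and 9.02 RPM (2 h) in nuclei. The mitochondrial libraries of 2 h lay above all others of that preparation, while in nuclei the times overlapped. It rose in the mitochondrial preparation by 0.56 ± 0.124 (adjusted p = 0.0134) over 0 h and 0.59 ± 0.124 (adjusted p = 0.0252) over 1 h, against 0.01 ± 0.124 (adjusted p = 1) and 0.26 ± 0.124 (adjusted p = 0.338) in nuclei. The difference between the preparations in the 2 h effect was 0.55 ± 0.175 (adjusted p = 0.32) and did not pass. Leaving out 0 h or 2 h replicate 2 ended the first call, and every library but 2 h replicate 1 the other (largest adjusted p 0.11 and 0.159).

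Genes that supply acetyl-CoA and build the fatty acid chain held 1 call in the 6 comparisons of time, that of Fasn. Acly, which makes acetyl-CoA from citrate, Acss2, which makes it from acetate, Acaca, the carboxylase, and Elovl6, the elongase of saturated chains, passed in no comparison of time. Their log2 fold changes at 2 h against 0 h were -0.11, 0.20, 0.31 and -0.19 in the mitochondrial preparation and -0.14, 0.00, 0.25 and 0.00 in nuclei. Acss2 had only 22 to 49 reads in a library, and Ggt7 and Gss overlap it on the other strand. Fasn, the fatty acid synthase, was at 173 and 184 RPM (0 h), 180.2 and 167 RPM (1 h), then 159 and 143 RPM (2 h) in the mitochondrial preparation, so it was lowest at 2 h. It fell there by 0.24 ± 0.068 (adjusted p = 0.0394), a call kept only without 2 h replicate 1 (largest adjusted p 0.266), with -0.14 ± 0.068 (adjusted p = 0.24) in nuclei.

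The 4 desaturases held calls in both directions. Scd2 (chr19:44293674-44306864, plus strand), the stearoyl-CoA desaturase that is the more abundant form in brain, was at 308 and 281 RPM (0 h), 270.1 and 261 RPM (1 h), then 367 and 332 RPM (2 h) in the mitochondrial preparation and at 265 and 265 RPM (0 h), 270.1 and 270.1 RPM (1 h), then 332 and 332 RPM (2 h) in nuclei. The 2 h libraries were the highest of each preparation. Values are the same within each nuclear pair because genes of the same rank receive the same quantile normalized value; the deposited values in nuclei were 345 and 343 RPM (0 h), 229.9 and 222 RPM (1 h), then 303 and 279 RPM (2 h). Scd2 rose over 0 h by 0.25 ± 0.056 (adjusted p = 0.0148) and 0.33 ± 0.056 (adjusted p = 0.00358) and over 1 h by 0.40 ± 0.056 (adjusted p = 0.00339) and 0.30 ± 0.056 (adjusted p = 0.0179). On the deposited scale its 2 h values lay below those of 0 h, by 0.35 and 0.24 (log2), so the direction of the change from 0 h depends on the scale. The calls of the mitochondrial preparation over 1 h and of nuclei over 0 h held without each library. That of the mitochondrial preparation over 0 h was lost without 0 h replicate 2 or 2 h replicate 1 (largest adjusted p 0.131). That of nuclei over 1 h was lost without each library in turn (largest adjusted p 0.111). The tied nuclear pairs add no spread to the fit of Scd2, so its standard error can be too small. Without 1 nuclear library the change over 0 h stayed between 0.327 and 0.332, so those fits hardly test that call.

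Scd1, the form best known from liver and fat, rose in nuclei at 2 h over 0 h by 0.30 ± 0.085 (adjusted p = 0.0462), kept only without 0 h replicate 1 (largest adjusted p 0.322). Fads1 and Fads2 desaturate polyunsaturated chains and lie side by side on chromosome 19. Fads1 (chr19:10182888-10196877, plus strand) was at 37.1 and 39.4 RPM (0 h), 27.3 and 30.6 RPM (1 h), then 39.8 and 39.2 RPM (2 h) in the mitochondrial preparation and at 41.3 and 36.8 RPM (0 h), 44.6 and 40.2 RPM (1 h), then 50.7 and 51.5 RPM (2 h) in nuclei. The 1 h libraries were the lowest in the former, and the 2 h libraries the highest in the latter. It fell at 1 h in the mitochondrial preparation by 0.40 ± 0.081 (adjusted p = 0.0114), rose from there to 2 h by 0.45 ± 0.081 (adjusted p = 0.0112), and rose in nuclei at 2 h over 0 h by 0.39 ± 0.081 (adjusted p = 0.01). The fall was lost without 0 h replicate 2 or 1 h replicate 1, the rise after it held only without 1 h replicate 2, and the nuclear one only without 0 h replicate 1 (largest adjusted p 0.0969, 0.0946 and 0.1).

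Fads2 (chr19:10062765-10101746, minus strand) had 57.3 and 63.9 RPM (0 h), 46.9 and 41.6 RPM (1 h), then 49.2 and 49.99 RPM (2 h) in the mitochondrial preparation and 59 and 53.6 RPM (0 h), 61.7 and 54.8 RPM (1 h), then 58.6 and 59.9 RPM (2 h) in nuclei. Both later times lay below 0 h in the mitochondrial preparation, and in nuclei the times overlapped. It fell by 0.45 ± 0.083 at 1 h (adjusted p = 0.00708) and by 0.29 ± 0.083 at 2 h (adjusted p = 0.0456) in the mitochondrial preparation, and nuclei gave 0.05 ± 0.083 (adjusted p = 0.909) and 0.08 ± 0.083 (adjusted p = 0.683). Without replicate 2 of either time the 1 h call was lost, and the 2 h call held only without 0 h replicate 1 (largest adjusted p 0.0717 and 0.266).

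The scale decided how the comparisons with 0 h read. On the deposited values, limma called 0 members higher and 15 lower in nuclei at 2 h against 0 h, where it called 1.59% of all genes higher and 38.1% lower. The members that rose there after quantile normalization lay, as deposited, between -0.24 (Scd2) and 0.16 (Hsd17b7), with a median over all 36 members of -0.25 against -0.51 over all genes. The median member thus fell less than the median gene. In the mitochondrial preparation at 2 h against 0 h, 3 were higher as deposited, Hmgcs1 (0.23), Hsd17b7 (0.45) and Insig1 (0.31), and 17 lower, against 1.7% and 25.5% of all genes.

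At 1 h against 0 h, deposited values gave 0 members higher and 21 lower in the mitochondrial preparation (0.702% and 17.9% of all genes) and 0 higher and 32 lower in nuclei (0.508% and 48%). The member median was -0.48 against -0.22 for all genes in the mitochondrial preparation, and -0.62 against -0.64 in nuclei. From 1 to 2 h, where the shift of all genes was small (-0.03 and 0.09), every member called after quantile normalization had the same direction as deposited. As deposited, 8 members rose and 1 fell in the mitochondrial preparation (1.23% and 2.07% of all genes), and 9 rose and 0 fell in nuclei (2.11% and 0.432%). The member medians were 0.29 and 0.33.

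**Figure D4:**
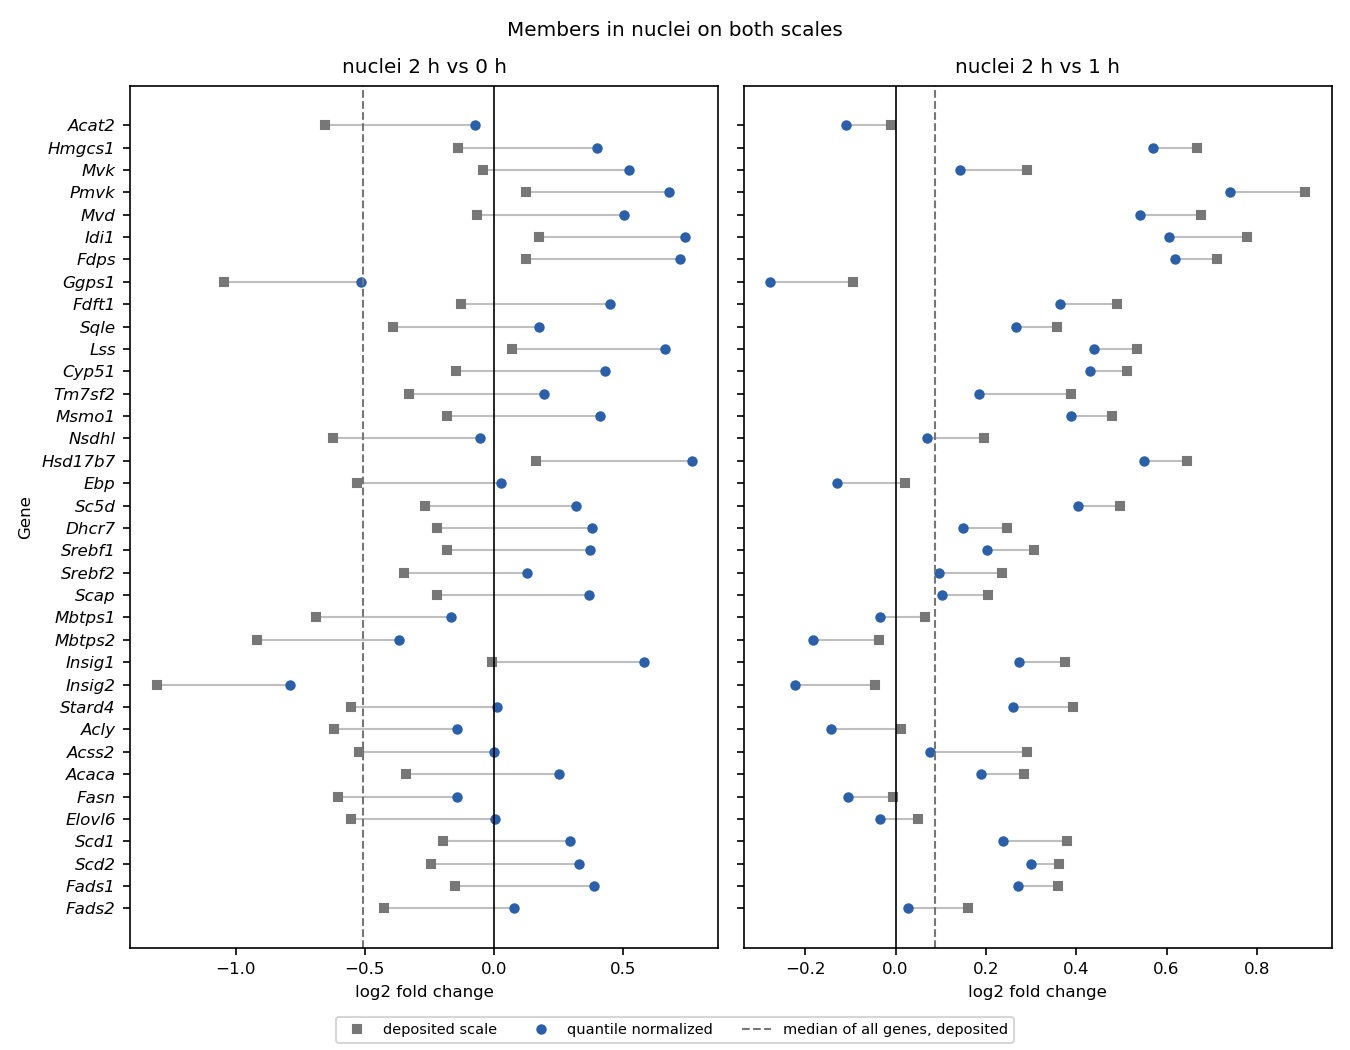
Log2 fold changes of the 36 members in nuclei, at 2 h against 0 h (left) and against 1 h (right), as deposited (squares) and after quantile normalization (circles), with the median of all genes as deposited (dashed line). At left the scales lie on different sides of 0 for many members, and at right most members keep their side.

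Between the preparations, over the mean of the 3 times, 2 members were higher in the mitochondrial preparation, against 4.43% of all genes, and 10 lower, against 5.19%. The 2 were Scd1 (0.29 ± 0.049, adjusted p = 0.00321) and Fasn (0.17 ± 0.039, adjusted p = 0.017), the latter lost without mitochondria 2 h replicate 1, nuclei 0 h replicate 2 or nuclei 2 h replicate 1 (largest adjusted p 0.0594). Sqle and Insig1 were the furthest in the other direction, with -0.44 ± 0.035 (adjusted p = 1.57e-05) and -0.43 ± 0.044 (adjusted p = 9.97e-05). By time, Sqle differed by -0.19, -0.60 and -0.52 and Insig1 by -0.46, -0.49 and -0.35 at 0, 1 and 2 h. Fads1 (-0.32), Msmo1 (-0.29), Mbtps1 (-0.27), Srebf2 (-0.25) and Cyp51 (-0.21) were also lower and, like Sqle, Insig1 and Scd1, kept their calls in all 12 fits without 1 library. Cyp51 and Srebf2 lost theirs as deposited and under median centring, and Mbtps1 under median centring, which gave 7 members higher and 4 lower. The calls of Srebf1 (-0.29), Sc5d (-0.21) and Fads2 (-0.18) were lost in 4, 10 and 8 of those fits (largest adjusted p 0.0664, 0.125 and 0.104). As deposited, limma called 4 members higher and 6 lower, against 5.16% and 8.32% of all genes. At 0 h, Srebf1, Srebf2, Cyp51, Fads1 and Fads2 lay between -0.04 and 0.11, and at 1 h between -0.55 and -0.38. As deposited, these 5 lay between -0.32 and -0.09 at 1 h, and Fads1 was the one that passed (adjusted p = 0.0413). Malat1 also differed between the preparations, and its part in these differences was not tested.

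**Figure D5:**
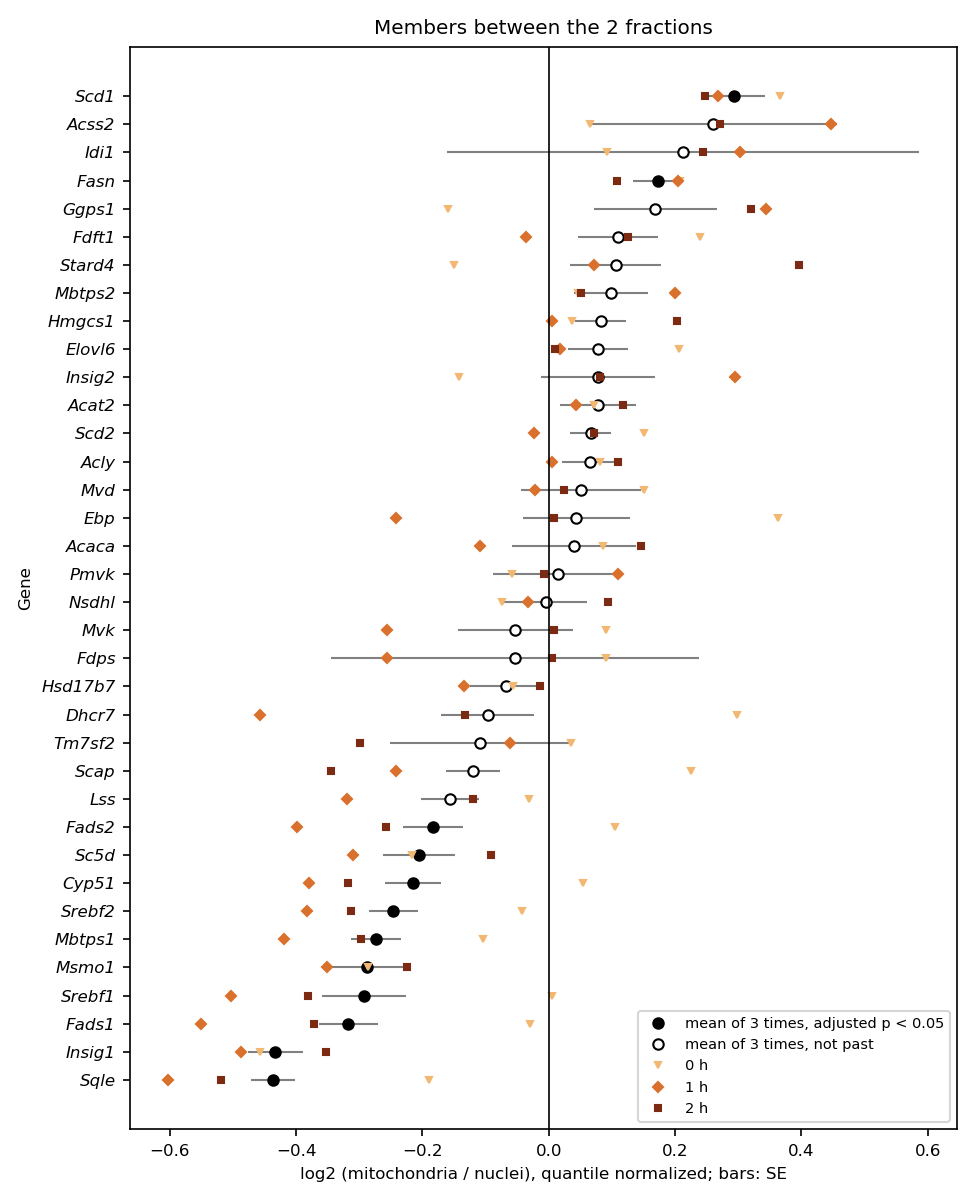
Log2 difference of each member between the mitochondrial preparation and nuclei after quantile normalization, as the mean of the 3 times (large circles, filled where the adjusted p was under 0.05 in limma, bars for SE) and at 0, 1 and 2 h (small symbols). Sqle and Insig1 lie furthest to the left, and for many genes the 1 h symbol lies left of the 0 h symbol.

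The time effects of the preparations were compared directly. For the 1 h effect, 0 members were higher and 1 lower in the mitochondrial preparation (0.327% and 0.892% of all genes). That gene was Sqle, at -0.41 ± 0.086 (adjusted p = 0.0434), and its call was lost without each of the 8 libraries in turn (largest adjusted p 0.165). Fads1, Scap and Fads2 followed at -0.52 ± 0.114 (adjusted p = 0.0538), -0.47 ± 0.105 (adjusted p = 0.061) and -0.50 ± 0.118 (adjusted p = 0.0719) and did not pass. The deposited scale, on which nuclei as a whole fell further at 1 h, called 2 members higher and 0 lower, against 7.46% and 0.389% of all genes, with Sqle at -0.10. For the 2 h effect, limma called 0 members in either direction after quantile normalization (0.00474% and 0% of all genes), with 1 higher and 8 lower at an unadjusted p under 0.05.

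Levels between genes were read from the deposited transcript table, in FPKM, which adjusts for length. It listed transcripts of 23 members in 11 libraries, with the second library alone for nuclei at 1 h, the first being not analysed here in FPKM. Of the 23, 18 had only 1 listed transcript. The FPKM are levels of listed transcripts and need not be those of whole genes, which limits any ranking of genes. Scd2 was the highest of the 23 members, at 27.3, 46.9 and 62.8 FPKM (lowest, median and highest library), and Fads2 was next, at 13.7, 18.7 and 25.9. Acly, Scd1, Fasn and Srebf2 had medians of 12.4, 12.2, 11.9 and 11.3 FPKM, closer to each other than the spread of each over libraries. The sterol enzymes lay lower, with medians of 8.97 for Sqle, 7.16 for Cyp51, 5.88 for Msmo1 and 4.94 for Hmgcs1. Srebf2 had 8.76, 11.3 and 15.3 FPKM and Srebf1 0.818, 1.84 and 3.73, so their libraries did not overlap. Hsd17b7, with 1 listed transcript, was the lowest, at 0.211, 0.657 and 2.81. It varied within pairs of libraries on this scale (0.211 and 2.01 FPKM in the mitochondrial preparation at 0 h). Reads of the whole gene in those libraries were 357 and 410.

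Insig1 had 3.39 and 4.29 FPKM (0 h), 3.55 and 3.55 FPKM (1 h), then 6.19 and 6.00 FPKM (2 h) in the mitochondrial preparation. It had 3.18 and 4.19 FPKM (0 h), 3.89 FPKM (1 h), then 6.27 and 6.19 FPKM (2 h) in nuclei. The 2 h libraries of Insig1 were the highest of each preparation. Those of Hmgcs1 overlapped 0 h in FPKM, with 7.67 and 1.70 (0 h) against 6.07 and 5.45 (2 h) in the mitochondrial preparation and 4.63 and 6.46 against 5.57 and 4.94 in nuclei. FPKM is not quantile normalized, and without that step the 23 members had a median log2 difference of -0.51 at 1 h against 0 h, -0.23 at 2 h against 0 h and 0.37 at 2 h against 1 h in the mitochondrial preparation, and -0.26 at 2 h against 0 h in nuclei, on the log2(FPKM + 1) scale. At 2 h in nuclei 15 of the 23 had both libraries below those of 0 h, and 2, among them Insig1, had both above. In the mitochondrial preparation these were 11 and 3. The same was not taken over all transcripts, so a change of the members cannot be told from a general shift.

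Other genes of the pathway were followed in lists of their own, for which fits without 1 library were not run. Shares of all genes stand in brackets beside the counts. Of 10 genes of sterol uptake, esterification and transport, 0 rose (2.24%) and 2 fell (3.74%) at 1 h in the mitochondrial preparation. At 2 h against 0 h there, 0 rose (4.66%) and 4 fell (6.78%), and 3 rose (1.61%) from 1 to 2 h. In nuclei 3 rose (4.65%) and 1 fell (5.55%) at 2 h against 0 h, and 2 rose (1.16%) from 1 to 2 h. With lists this short, a count of 1 is not read as a change of the list. Vldlr, a lipoprotein receptor, fell at 1 h in the mitochondrial preparation by 0.79 (adjusted p = 0.00892) and rose from 1 to 2 h by 1.27 ± 0.150 (adjusted p = 0.00116) there and 1.23 ± 0.150 (adjusted p = 0.00159) in nuclei. Gramd1b, which carries cholesterol from the plasma membrane to the endoplasmic reticulum, rose from 1 to 2 h by 0.86 ± 0.192 (adjusted p = 0.0321) and 1.08 ± 0.192 (adjusted p = 0.014). Its relative Gramd1a fell at 2 h against 0 h, with -0.62 ± 0.138 (adjusted p = 0.0134) and -0.48 ± 0.138 (adjusted p = 0.0449). In the mitochondrial preparation Stard3 (-0.61 ± 0.169, adjusted p = 0.0385) and the esterifying enzyme Soat1 (-0.37 ± 0.090, adjusted p = 0.0212) fell as well. Lbr, counted in this list although it is a sterol reductase of the nuclear membrane, also fell there (-0.51 ± 0.082, adjusted p = 0.00227).

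Of 11 listed genes that turn over INSIG and SREBP proteins, 9 were tested. Rnf145, an INSIG-bound ubiquitin ligase, had the largest called change in these lists, with -0.84 ± 0.089 (adjusted p = 0.000299) at 1 h and -1.38 ± 0.089 (adjusted p = 2.98e-06) at 2 h in the mitochondrial preparation and -1.14 ± 0.089 (adjusted p = 1.39e-05) at 2 h in nuclei. It kept this direction as deposited (-1.80 and -1.67 at 2 h). Erlin2, an adaptor for ubiquitin ligases of the endoplasmic reticulum, fell at 1 h in the mitochondrial preparation (-0.50 ± 0.098, adjusted p = 0.00993). None of the 9 was called higher in any of the 6 comparisons of time, where 1.01% to 4.66% of all genes were. Of 5 genes of cholesterol efflux and LXR, such as Abca1 and Abcg1, 0 passed in any comparison of time by limma, while as deposited 2 fell in nuclei at 1 h and 2 at 2 h against 0 h, where 48% and 38.1% of all genes fell, and 1 in the mitochondrial preparation at 2 h against 0 h, where 25.5% fell.

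Of 16 further genes of fatty acid and lipid metabolism, 4 rose (4.66% of all genes) and 2 fell (6.78%) at 2 h against 0 h in the mitochondrial preparation. In nuclei 4 rose (4.65%) and 1 fell (5.55%). Mid1ip1, which activates acetyl-CoA carboxylase, rose by 0.71 ± 0.085 (adjusted p = 0.000429) and 0.71 ± 0.085 (adjusted p = 0.000436), Acsl1, an acyl-CoA synthetase, by 0.69 ± 0.162 (adjusted p = 0.0177) and 0.77 ± 0.162 (adjusted p = 0.0111), and the citrate carrier Slc25a1 by 0.35 ± 0.085 (adjusted p = 0.0209) and 0.43 ± 0.085 (adjusted p = 0.00779). Acsl3 fell in both (-0.72 ± 0.121, adjusted p = 0.00325, and -0.68 ± 0.121, adjusted p = 0.00431), and Fads3, the neighbour of Fads1 and Fads2, fell in the mitochondrial preparation (-0.54 ± 0.072, adjusted p = 0.000804). The 1 h effects of Fads3 and Elovl1 differed between the preparations, by -0.70 ± 0.102 (adjusted p = 0.00954) and -0.84 ± 0.145 (adjusted p = 0.0204). Of 11 genes that use isoprenoids, 0 rose (4.66% of all genes) and 1 fell (6.78%) at 2 h against 0 h in the mitochondrial preparation. In nuclei 2 rose (4.65%) and 1 fell (5.55%). Nus1, a subunit of dolichol synthesis, was the one that fell in both, with -0.33 ± 0.078 (adjusted p = 0.0194) and -0.43 ± 0.078 (adjusted p = 0.00486), and Rabggta (0.69 ± 0.153, adjusted p = 0.0138) and Fnta (0.38 ± 0.110, adjusted p = 0.0486), subunits of prenyltransferases, rose in nuclei. As deposited, 0 genes of these 5 lists were called higher at 2 h against 0 h in the mitochondrial preparation or nuclei, against 1.7% and 1.59% of all genes.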

How the data were processed

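Per the labels' protocols, RNA depleted of ribosomal RNA from mitochondrial and nuclear preparations was made into libraries with the NEBNext Ultra II kit. The submitters' processing notes name HISAT2, StringTie, edgeR, GRCm38 and mm10, with no versions, order or role, and strandedness is not given in the sources used here. The deposited gene table, per the file headers, holds log2 RPM for 35321 genes. The deposited transcript table holds FPKM, whose depth is unknown, as the authors' values, and transcripts of a member were summed. At least 99.997% of the gene values came out as whole reads at the library totals in the table (within 0.05 reads of a whole number), which gave the reads quoted. Precision is limited by 2 libraries a group, and reads are PCR copies without molecular identifiers.

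Genes above a floor of 0.9 reads in at least 2 of 12 libraries (21078) were quantile normalized and fitted with limma 3.58.1 in R 4.3.3 (6 group means, trend and robust moderation, two-sided tests, Benjamini-Hochberg within a comparison). Alternatives were the deposited scale, median centring, other filters, plain moderation, a replicate block, a term for the library split, 8 libraries, 6 libraries of a preparation, and leaving out each library. The members and lists were chosen with earlier results of these data known, and the lists are no independent support. Values in every library were given for Srebf1, Srebf2, Scap, Insig1 and Insig2 and for up to 14 other members past the threshold in at least 2 of the 6 comparisons of time, by smallest p; Fasn, Fdps and the values at single times between preparations were added after the values were seen. Other members are given by count, range and change. Of the other lists, up to 4 genes of smallest p past the threshold were named for a list and comparison, and a list of further sterol enzymes is not reported here. Motifs were searched by exact letters on both strands of RefSeq windows. The fit was tested on simulated data. The 2 pairwise tables of the authors were not used.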

Additional observations from a re-analysis of the deposited data

Results flagged for a closer look

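For 3 genes the 1 h effect differed between the preparations by the test of that difference in limma. Sqle had -0.51 in the mitochondrial preparation and -0.09 in nuclei, a difference of -0.41 ± 0.086 (adjusted p = 0.0434). Fads3 had -0.60 and 0.10, a difference of -0.70 ± 0.102 (adjusted p = 0.00954), and Elovl1 had -0.41 and 0.42, a difference of -0.84 ± 0.145 (adjusted p = 0.0204). On the deposited scale the differences were -0.10, -0.41 and -0.48, with adjusted p of 0.544, 0.0773 and 0.0947.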

How the results depend on the processing

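Counts of members called follow, in the order of the comparisons in the report, where they moved by over 1.5 times. The deposited scale gave 21 lower at 1 h and 3 higher and 17 lower at 2 h against 0 h and 1 lower from 1 to 2 h in the mitochondrial preparation, 32 lower at 1 h and 0 higher and 15 lower at 2 h against 0 h in nuclei, 4 higher and 6 lower between preparations, and 2 higher and 0 lower in the 1 h effect. Median centring gave, in the mitochondrial preparation, 1 higher at 1 h, 9 lower at 2 h against 0 h and 1 lower from 1 to 2 h; in nuclei 2 higher at 1 h and 1 lower from 1 to 2 h; 7 higher and 4 lower between preparations; and 10 and 5 lower in the 1 h and 2 h effects. Without a filter on low values there were 3 lower at 1 h, 5 higher and 1 lower at 2 h and 7 higher from 1 to 2 h in the mitochondrial preparation, 1 lower at 2 h and 2 higher from 1 to 2 h in nuclei, and 1 higher and 6 lower between preparations. The stricter filter gave 1 higher at 1 h in each preparation, 12 higher from 1 to 2 h in nuclei, and 6 and 1 lower in the 1 h and 2 h effects. Without trend and robust moderation there were 1 lower at 1 h, 5 higher and 0 lower at 2 h and 3 higher from 1 to 2 h in the mitochondrial preparation, 4 higher and 1 lower at 2 h and 0 higher from 1 to 2 h in nuclei, 0 higher and 5 lower between preparations and 0 lower in the 1 h effect. The 6 libraries of the mitochondrial preparation alone gave 2 lower at 1 h, 1 lower at 2 h and 0 higher from 1 to 2 h. The term for the split gave 1 higher at 1 h in each preparation, 3 and 1 lower at 2 h against 0 h in the mitochondrial preparation and nuclei, and 7 and 2 lower in the 1 h and 2 h effects. The 8 libraries alone gave 0 everywhere, with 11, 16, 21, 2, 20, 15, 10, 9 and 8 members at an unadjusted p under 0.05 by limma. The cause of these moves was not tested.

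With a replicate block there was 1 member higher at 1 h in the mitochondrial preparation and 0 lower in the 1 h effect, and other counts stayed within 1.5 times. Deviations of same-numbered libraries correlated at -0.334 to 0.335 over 14440 genes, and 3 of 15 pairs of groups were over 0.1. Those 3 join mitochondria 1 h, nuclei 0 h and nuclei 1 h, where replicate 1 is the library that stands apart. Among the groups at 0 and 1 h the split therefore hides whether the numbers pair the samples. Pairs with a 2 h group lay between -0.0050 and 0.043, so the numbers showed no pairing there. Without 1 library in turn, the lower count at 1 h in the mitochondrial preparation ranged from 3 to 6, that at 2 h against 0 h from 5 to 7 higher and 0 to 3 lower, and from 1 to 2 h from 4 to 9 higher. In nuclei these were 7 to 8 higher and 0 to 1 lower at 2 h against 0 h and 1 to 3 higher from 1 to 2 h. Between preparations they were 1 to 2 higher and 7 to 11 lower, and the 1 h effect had 0 lower.

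Of the named changes, these turned sign as deposited: Scd2 in the mitochondrial preparation at 2 h against 0 h (-0.35) and, in nuclei, Hmgcs1 (-0.14), Fdft1 (-0.13), Cyp51 (-0.15), Msmo1 (-0.18), Insig1 (-0.0069), Scap (-0.22), Scd1 (-0.20), Scd2 (-0.24) and Fads1 (-0.15). Median centring turned Scd2 in the mitochondrial preparation at 2 h against 0 h (-0.0053) and Fads2 between preparations (0.011). Depth limits Acss2, Idi1, Tm7sf2 and Pmvk most, with the fewest reads. RPM per kb of the gene table was not run as a level, and FPKM is given as values.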
